A study of Mus musculus with 6 samples.

Results

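ATF4 and 9 genes that it is known to control were followed by RNA sequencing in EL4, a T-cell lymphoma line of the mouse. The 10 genes were taken by symbol, Atf4, Ddit3, Trib3, Chac1, Asns, Psat1, Phgdh, Psph, Shmt2 and Mthfd2, and each matched 1 of the 51912 Ensembl gene IDs in the count table. They and the lists below were chosen with earlier results of these data known. Their shares of calls are therefore set beside those of all genes as descriptions only. The cells were labelled wild type and had received, for 24 h, either vehicle (3 libraries) or RGFP966 at 10 µM (3 libraries), which inhibits the histone deacetylase HDAC3. Cells of both groups were grown in serum-containing DMEM with L-glutamine. The series covers 1 cell line, 1 dose and 1 time, and nothing in the labels ties the libraries to separate cultures, so p-values measure the spread between these libraries, which may be technical.

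ATF4 is the transcription factor of the integrated stress response. Kinases that sense amino acid shortage, endoplasmic reticulum stress, viral RNA or heme loss phosphorylate the initiation factor eIF2, and ATF4 is then translated more, through upstream open reading frames in its mRNA, so its transcript level is not a measure of its protein. ATF4 binds DNA with C/EBP partners and induces asparagine synthetase, the enzymes that make serine from a glycolytic intermediate, the mitochondrial enzymes that pass the carbon of serine to folate, amino acid transporters and aminoacyl-tRNA synthetases. Proliferating T cells and lymphomas use this carbon for nucleotides.

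With RGFP966, transcripts of all 3 enzymes of serine synthesis and of both mitochondrial folate enzymes among the members fell by 10.1% to 16.8%. The stress genes Trib3 and Ddit3 fell by 30.4% and 20.6%. Atf4 itself, Asns and Chac1 were not called. By edgeR's quasi-likelihood test, with an adjusted p under 0.05 as the call, 7 of the 10 genes were lower and 0 higher, and 0 were higher at an unadjusted p under 0.05 or by DESeq2 or limma-voom. Of all 13484 genes tested, 23.3% were called, 11.9% lower and 11.4% higher. The median log2 fold change was -0.23 over the 10 genes and -0.00 over all genes tested. All 10 passed the filter on low counts, and in each of them every RGFP966 library lay below every vehicle library; the groups did not overlap in 36.3% of all genes tested. Falls were more frequent among abundant genes: at a mean of 100 CPM (counts scaled to a common library total) or more, 22.2% of 2621 genes were called lower and 13.5% higher, and 4 of the 6 members at that level were lower. At 10 to 100 CPM, 14.6% of genes were called lower, and 3 of the 4 members there. In bulk RNA, a change in the mixture of cell states and a change of RNA per cell cannot be told apart.

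**Figure D1:**
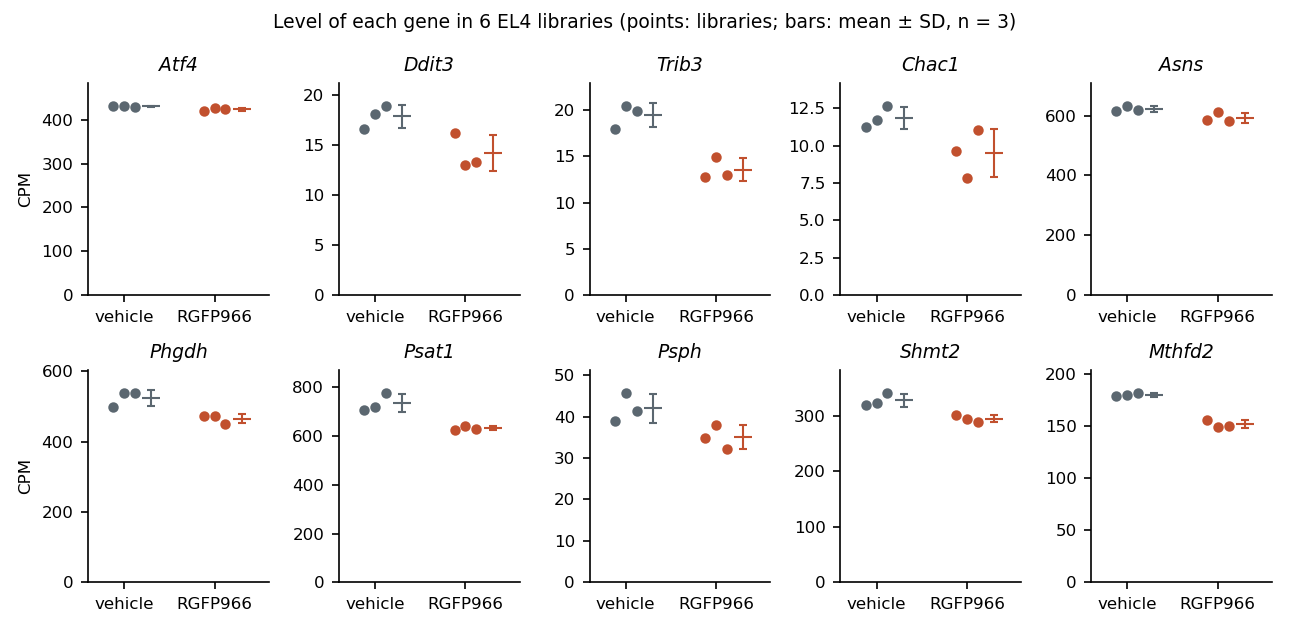
Level of each of the 10 genes in CPM (vertical axes from 0) in the 3 vehicle and 3 RGFP966 libraries; points are libraries and the bars beside them the mean ± SD. In every panel the RGFP966 points lie below the vehicle points, with narrow margins in Atf4, Asns, Psph, Ddit3 and Chac1.

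Library totals ran from 12935443 to 16451017 counts. Chac1 had the fewest counts of the members, 101 to 198 a library. The submitters' extraction text speaks of retinas, so markers were checked. Summed T cell markers held 2776 to 2809 CPM with vehicle and 2895 to 2959 CPM with RGFP966, and 11 of the 12 averaged at least 1 CPM. Summed retina markers held 4.80 to 5.14 and 5.01 to 5.62 CPM, with Gnat1, Crx and Gngt1 at 0 in every library. Summed B cell markers held 11.2 to 12.4 and 18.4 to 19.1 CPM, with Ms4a1 at 0, and fibroblast markers 44.1 to 45.1 and 54.6 to 58.0 CPM, with Col3a1 at 0. Of the 7 B cell markers 2 averaged at least 1 CPM, and of the 6 fibroblast markers 1. In each of these lists 2 genes were tested, and 1 was called higher and 0 lower. Of 11 T cell markers tested, 4 were called higher and 2 lower. The part of these differences in marker sums in the results was not tested. Myeloid markers held 12.2 to 13.6 and 12.6 to 12.9 CPM. Hdac3 transcripts, which an inhibitor of the protein need not alter, held 89.1 ± 3.83 (SD, n = 3) and 85.9 ± 2.49 CPM and were not called. The split of calls over all genes moved with scaling, from 49.1% rises to 59.1% with upper-quartile factors, under which 7 members were still lower and 0 higher.

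To set the members beside the DNA element that ATF4 is known for, the letters TGATGNAA, the core of the site bound by ATF4 with a C/EBP partner, were searched on both strands in windows of 300 bases (250 before to 50 after the RefSeq start, build GRCm38.p6). All 10 members had a window, and 3 of them, Asns, Chac1 and Trib3, held 1 match each. Of 32851 such windows of all genes, 3.97% held a match. The 3 sites are shown because they are the matches among the members, 5′ to 3′ along the gene with the 8 matching bases in capitals.
Asns: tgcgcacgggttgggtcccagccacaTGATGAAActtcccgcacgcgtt
Chac1: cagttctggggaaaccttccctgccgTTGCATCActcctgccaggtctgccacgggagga
Trib3: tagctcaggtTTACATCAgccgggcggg
The Asns window lies at chr6:7693210-7693258 on the minus strand, and its match starts 23 bases before the RefSeq start. The Chac1 window lies at chr2:119351023-119351082 on the plus strand, with the match on the opposite strand 193 bases before the start. The Trib3 window lies at chr2:152344029-152344056 on the minus strand, with the match on the opposite strand from base 15 after the start. Some RefSeq starts differ from the GENCODE gene bounds given below. By those bounds the Asns match lies inside the gene and the Trib3 match before its start. The windows of Psat1 and Mthfd2 lie well inside the bounds of these genes. In the windows of Atf4, Ddit3, Phgdh, Psat1, Psph, Shmt2 and Mthfd2 these letters were not found. The genes with and without a match both included called and uncalled members: of the 3 with a match Trib3 was called, and of the 7 without, 6 were.

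Serine is made in 3 steps. Phgdh (chromosome 3, 98313170 to 98339990, minus strand) encodes the dehydrogenase of the first step. It held 497, 538 and 537 CPM in vehicle libraries 1 to 3 and 473, 472 and 450.4 CPM with RGFP966 1 to 3. The groups did not overlap, and vehicle library 1 lay nearest to the RGFP966 libraries. Phgdh fell by 11.3% (log2 fold change -0.17 ± 0.04 SE, edgeR adjusted p = 4.19e-04). Of its exonic 50-base words 47.8% also occur in other annotated genes, so reads may be divided between these genes. The predicted gene Gm7901 shares more of these words than any other gene. Gm7901 itself held 25.2 and 25.4 CPM and was not called (adjusted p = 0.934).

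Psat1 (chromosome 19, 15904678 to 15947337, minus strand) encodes the aminotransferase of the middle step. It was the most abundant member by CPM, with 708, 720.0 and 777 CPM with vehicle and 627, 643 and 628 CPM with RGFP966. The RGFP966 libraries lay close together, and each was below the lowest vehicle library. Psat1 fell by 14.0% (log2 fold change -0.22 ± 0.04 SE, edgeR adjusted p = 9.36e-06).

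Psph (chromosome 5, 129765558 to 129787449, minus strand) encodes the phosphatase that releases serine in the last step. It held 38.8, 45.7 and 41.4 CPM with vehicle and 34.9, 37.9 and 32.2 CPM with RGFP966, with a gap of less than 1 CPM between the groups. Psph fell by 16.8% (log2 fold change -0.26 ± 0.07 SE, edgeR adjusted p = 0.00419). The call was lost without vehicle library 2 (adjusted p = 0.0560) and without RGFP966 library 3 (0.0766), in a range over alternatives from 0.00137 to 0.0766. Of its exons 10.4% are overlapped by Cct6a on the opposite strand, which was not called (334 and 336 CPM, adjusted p = 0.906).

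Shmt2 (chromosome 10, 127517123 to 127522444, minus strand) encodes the mitochondrial enzyme that splits serine into glycine and a folate-bound carbon. It held 319.7, 322 and 341 CPM with vehicle and 301, 293 and 289 CPM with RGFP966. No RGFP966 library reached the vehicle range, and Shmt2 fell by 10.1% (log2 fold change -0.15 ± 0.04 SE, edgeR adjusted p = 0.00182), the smallest fall among the 7 called members.

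Mthfd2 (chromosome 6, 83305691 to 83325908, minus strand) encodes the dehydrogenase and cyclohydrolase that oxidises that carbon. It held 179, 179.6 and 182 CPM with vehicle and 156, 149.7 and 150.1 CPM with RGFP966. The vehicle libraries differed by less than 4 CPM and the gap to the nearest RGFP966 library was over 20 CPM. Mthfd2 fell by 15.6% (log2 fold change -0.24 ± 0.04 SE, edgeR adjusted p = 7.05e-06), the smallest adjusted p among the members.

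Together the 5 enzymes held 1809 CPM with vehicle and 1579 CPM with RGFP966. Per kilobase of exon, the vehicle levels of Phgdh (211 CPM per kb), Psat1 (173) and Shmt2 (105) were above those of Mthfd2 (51.6) and Psph (9.69), so the transcript of the last step of serine synthesis was the scarcest of the 5. The order was the same in RGFP966 libraries, at 187, 149, 94.7, 43.6 and 8.09 CPM per kb. Lengths are those of all annotated exons of a gene merged, and the order depends on them: by CPM Psat1 lay above Phgdh.

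**Figure D2:**
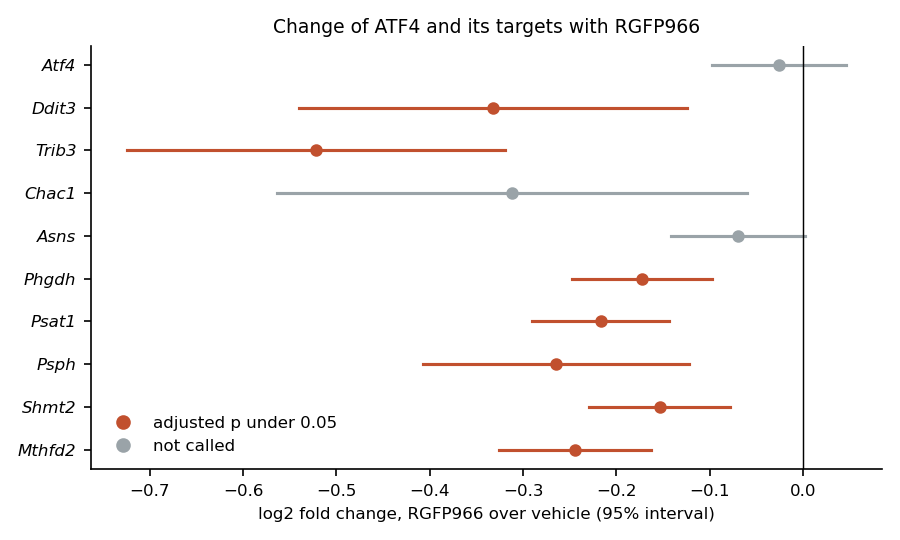
Log2 fold change of RGFP966 over vehicle for each of the 10 genes (horizontal axis), with its 95% interval from the edgeR fit; coloured genes have an adjusted p under 0.05. The intervals of Trib3, Ddit3 and Chac1 are the widest, and the point for Atf4 lies at -0.03.

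Atf4 (chromosome 15, 80255184 to 80257541, plus strand) held 432, 432 and 429 CPM with vehicle and 421, 426 and 424 CPM with RGFP966. Although the groups were apart, the step was smaller than 2% of the level. The log2 fold change was -0.03 ± 0.04 (SE, edgeR adjusted p = 0.669), with a 95% interval from -6.50% to 3.26%.

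Asns (chromosome 6, 7675169 to 7693254, minus strand) encodes the enzyme that makes asparagine from aspartate and glutamine. It held 614, 633 and 620 CPM with vehicle and 584, 612 and 582 CPM with RGFP966. RGFP966 library 2 lay within 2 CPM of the lowest vehicle library. The log2 fold change was -0.07 ± 0.04 (SE, edgeR adjusted p = 0.161), with a 95% interval from -9.33% to 0.128%. Per kilobase of merged exons Asns was the most abundant member, at 228 CPM per kb in vehicle libraries, while by CPM Psat1 was.

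Trib3 (chromosome 2, 152337422 to 152344032, minus strand) encodes a pseudokinase that is induced by ATF4 and restrains it. It held 17.9, 20.5 and 19.9 CPM with vehicle and 12.7, 15.0 and 13.0 CPM with RGFP966. The groups were clearly apart, and Trib3 had the largest change of the members: it fell by 30.4% (log2 fold change -0.52 ± 0.10 SE, edgeR adjusted p = 8.11e-05).

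Ddit3 (chromosome 10, 127290774 to 127296288, plus strand) encodes CHOP, the C/EBP family factor of prolonged stress. It held 16.6, 18.1 and 18.9 CPM with vehicle and 16.2, 13.0 and 13.3 CPM with RGFP966. RGFP966 library 1 lay just below vehicle library 1, and the other RGFP966 libraries stood apart. Ddit3 fell by 20.6% (log2 fold change -0.33 ± 0.10 SE, edgeR adjusted p = 0.0140). The call was lost without vehicle library 3 (adjusted p = 0.0781), without RGFP966 library 2 (0.0772) or 3 (0.0926), and when DESeq2 was used (0.0773). Its adjusted p ran from 0.00570 to 0.0926 over the alternatives. Of its exons 10.9% are overlapped by other annotated genes, the largest part by a gene of the same name on the same strand. It shares 4.4% of its words with other genes.

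Chac1 (chromosome 2, 119351229 to 119354381, plus strand) encodes an enzyme that degrades glutathione. It held 11.2, 11.7 and 12.7 CPM with vehicle and 9.63, 7.83 and 11.1 CPM with RGFP966. RGFP966 library 3 lay close to the vehicle libraries. The log2 fold change was -0.31 ± 0.13 (SE, edgeR adjusted p = 0.0640), with a 95% interval from -32.3% to -4.07%. It was called without RGFP966 library 3 (adjusted p = 0.0273), with a replicate block (0.0449) and with cyclic loess (0.0405). Without RGFP966 library 2, the lowest of the 6, its log2 fold change was -0.20 and its adjusted p 0.343, the highest over the alternatives.

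A ratio of 2 genes within a library does not depend on how libraries are scaled. Relative to Atf4, the counts of 6 of the 9 targets were lower in every RGFP966 library than in any vehicle library: Trib3, Psat1, Phgdh, Psph, Shmt2 and Mthfd2. The share of all genes whose ratio to Atf4 separates the groups was not computed. By CPM the groups did not overlap in 36.3% of all genes tested. Atf4 itself changed by only -1.75%, so these ratios largely repeat the falls in CPM. The ratio of Mthfd2 to Atf4 was 0.414, 0.416 and 0.424 in vehicle and 0.371, 0.352 and 0.354 in RGFP966 libraries. That of Psat1 to Atf4 was 1.64, 1.67 and 1.81 against 1.49, 1.51 and 1.48. For Asns, the ratio to Atf4 was 1.42, 1.47 and 1.44 in vehicle and 1.39, 1.44 and 1.37 in RGFP966 libraries, and the groups overlapped, as they did for Ddit3 and Chac1. The ratio of Psat1 to Asns was 1.15, 1.14 and 1.25 against 1.07, 1.05 and 1.08, with no overlap (log2 difference -0.15, two-sided exact permutation p = 0.1). The smallest two-sided p that 3 libraries against 3 allow is 0.1, so none of these ratios could pass a threshold of 0.05. The ratios of Psat1 to Phgdh (log2 difference -0.04, exact permutation p = 0.3) and of Ddit3 to Trib3 (0.18, exact permutation p = 0.4) overlapped between the groups. The pairs other than those with Atf4 were chosen after the values had been seen.

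**Figure D3:**
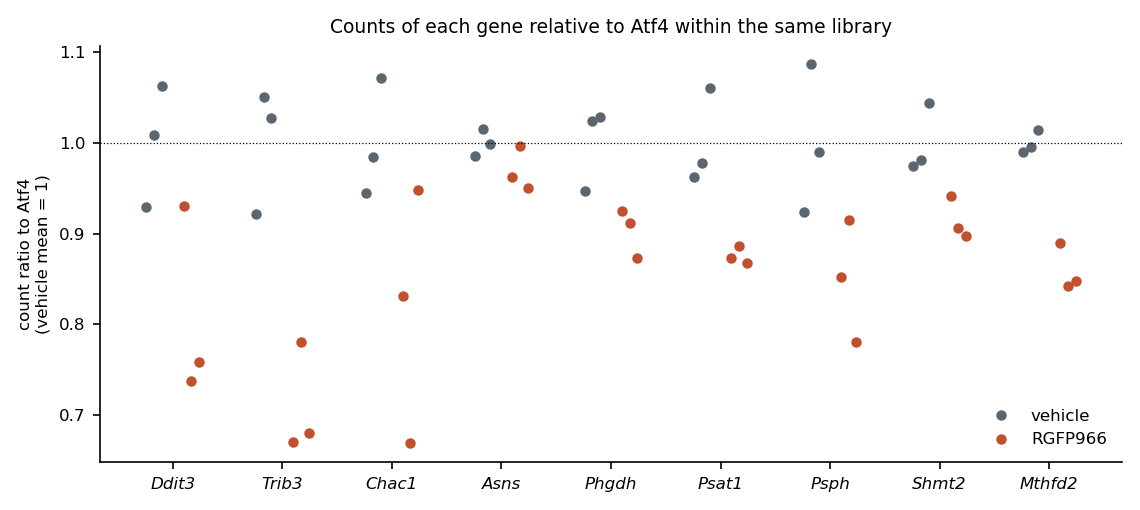
Counts of each target divided by the counts of Atf4 in the same library, scaled so that the vehicle mean is 1 (vertical axis, which does not start at 0); points are libraries. RGFP966 points lie below all vehicle points for Trib3, Phgdh, Psat1, Psph, Shmt2 and Mthfd2, and overlap with them for Ddit3, Chac1 and Asns.

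Over the 6 libraries, the genes whose log2 CPM ran most like that of Atf4 among 9299 named genes of at least 5 CPM were Arrdc1 (Pearson r = 0.999), Camkk2 (0.997) and Clk4 (0.996). The other members had r from 0.54 (Chac1) to 0.93 (Trib3) with Atf4. These points share the difference between the groups, so the values are descriptions.

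Upstream of ATF4, the transcripts of eIF2, its exchange factor, its kinases and its phosphatase showed no common direction: of 15 genes tested 2 were higher, 2 lower and 11 not called (median log2 fold change -0.02). Each direction held 13.3% of the list, against 11.4% higher and 11.9% lower among all genes. Eif2s3x, which encodes the gamma subunit of eIF2 and shares 34.6% of its words with other genes, rose by 0.16 (edgeR adjusted p = 0.00128). Gcn1l1, the gene of the activator of the amino acid sensing kinase GCN2, rose by 0.13 (edgeR adjusted p = 0.0174), but lost its call without vehicle library 2 (0.160), RGFP966 library 1 (0.0882) or RGFP966 library 3 (0.0581), in a range that began at 0.00382. The falls of Eif2b4 (-0.15, edgeR adjusted p = 0.0361) and Eif2s2 (-0.11, adjusted p = 0.0495) kept their calls in 6 and 5 of 16 alternatives. Without vehicle library 2 their adjusted p was 0.111 and 0.430, and without RGFP966 library 3 it was 0.124 and 0.218. Eif2b4 was also lost without vehicle library 3 (0.188) and RGFP966 library 2 (0.123), and Eif2s2 without RGFP966 library 1 (0.182). The lowest adjusted p over alternatives were 0.0123 for Eif2b4 and 0.0200 for Eif2s2.

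Among factors of the ATF and C/EBP families that can pair with or follow ATF4, 1 of 6 tested rose and 1 fell. Each is 16.7% of the list, against 11.4% higher and 11.9% lower among all genes. Atf5, a relative of ATF4 under the same translational control, fell from 14.9 ± 0.510 (SD, n = 3) to 11.3 ± 1.65 CPM (log2 fold change -0.40, edgeR adjusted p = 0.00698; 0.0853 without RGFP966 library 3, the highest of a range from 0.00160). Atf3, a stress-induced repressor, rose, but from 3, 7 and 4 counts to 22, 17 and 16 counts (log2 fold change 2.14 ± 0.46 SE, edgeR adjusted p = 3.90e-04), a level under 2 CPM. At a minimum of 5 CPM Atf3 was not tested, and the DESeq2 Wald test gave it no adjusted p.

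A list of other ATF4 targets, which also held the Trib3 paralogs Trib1 and Trib2, went both ways. Of 22 listed, 16 were tested, and 5 rose and 2 fell (median log2 fold change 0.06). Rises made up 31.2% of those tested against 11.4% of all genes, and falls 12.5% against 11.9%. Trib1, a paralog of Trib3, rose from 71.3 ± 5.49 (SD, n = 3) to 89.9 ± 1.47 CPM (0.33, edgeR adjusted p = 1.80e-06). Ddit4, whose product REDD1 restrains the growth kinase mTORC1, rose from 57.7 ± 6.40 to 81.7 ± 5.70 CPM (0.50, edgeR adjusted p = 2.78e-06). Eif4ebp1, which encodes a translation repressor controlled by mTORC1, fell from 57.9 ± 4.54 to 48.1 ± 1.93 CPM (-0.27, edgeR adjusted p = 8.00e-04). Atf3 and Atf5 belong to this list as well. Of the remaining rises, named after their values were seen, Hmox1, the heme oxygenase gene, measured 0.24 (adjusted p = 0.00176) and Pycr1, a gene of proline synthesis, 0.39 (adjusted p = 0.0426). Pycr1 rose from 6.33 to 8.31 CPM and was called in 7 of 16 alternatives, and when 1 library was left out only without RGFP966 library 1 (range of adjusted p 0.0243 to 0.160). The targets Fgf21, Gdf15, Vldlr, Adm2, Cbs and Cth had too few counts to be tested.

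Of 12 amino acid transporter genes tested, 4 fell and 0 rose by edgeR (median log2 fold change -0.09), with 6 lower and 0 higher at an unadjusted p under 0.05. The 4 falls were 33.3% of the list, against 11.9% of all genes. By level, 22.2% of genes at 100 CPM or more were called lower, 14.6% at 10 to 100 CPM and 1.89% below 10 CPM. The listed genes spanned all of these levels, and Slc6a9 and Slc7a11 lay at 10 to 100 CPM. Slc6a9, a glycine transporter gene, held 21.1, 21.4 and 24.8 CPM with vehicle and 16.1, 14.9 and 13.9 CPM with RGFP966, with no overlap. It fell by 33.4% (log2 fold change -0.59 ± 0.10 SE, edgeR adjusted p = 5.12e-06); 30.2% of its exons are overlapped by Ccdc24, which held under 1 CPM. Slc7a11, the cystine transporter gene, fell by 20.5% (-0.33, edgeR adjusted p = 4.04e-04). Slc7a5, which encodes the large neutral amino acid transporter LAT1, fell by 8.88% (-0.13, edgeR adjusted p = 0.00941), but not without vehicle library 3 (0.204) or RGFP966 library 3 (0.0546), in a range that began at 0.00106. The fourth, Slc38a2, a transporter gene of small neutral amino acids named after its values were seen, measured -0.10 (adjusted p = 0.0359) and was called in 5 of 16 alternatives, and when 1 library was left out only without vehicle library 2 (range 0.0170 to 0.176). Without vehicle library 3, and without RGFP966 library 3, 2 transporter genes were called lower. By DESeq2 and limma-voom 0 transporters were higher.

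Of 13 cytosolic aminoacyl-tRNA synthetases, 8 fell and 0 rose by edgeR (median log2 fold change -0.12), which is 61.5% of the list against 11.9% of all genes and 22.2% of genes at 100 CPM or more, the level of all 13. Eprs fell from 368 ± 11.1 (SD, n = 3) to 323 ± 5.09 CPM (-0.19, edgeR adjusted p = 1.30e-04), Tars by 0.18 (adjusted p = 3.50e-04) and Cars by 0.19 (adjusted p = 7.39e-04) on the log2 scale. Without vehicle library 3 or RGFP966 library 3, 5 were called lower. The 1 synthetase gene higher at an unadjusted p under 0.05 was Lars, named after its values were seen (0.10, edgeR adjusted p = 0.0690). It was called higher with upper-quartile factors, library totals, a minimum of 5 CPM or cyclic loess and without either of those libraries (range 0.0195 to 0.361), and 0 synthetase genes were higher by DESeq2 or limma-voom.

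Other folate genes included the next enzyme of the mitochondrial route. Mthfd1l, which releases formate from mitochondrial folate, held 224, 209.9 and 217 CPM with vehicle and 173, 171 and 167 CPM with RGFP966. The groups were more than 30 CPM apart, and Mthfd1l fell by 21.5% (log2 fold change -0.35 ± 0.04 SE, edgeR adjusted p = 1.91e-09). Thus the transcripts of 3 mitochondrial enzymes on the route from serine to formate, Shmt2, Mthfd2 and Mthfd1l, were all lower. The cytosolic enzyme genes Shmt1 (0.004, edgeR adjusted p = 0.959) and Mthfd1 (-0.01, adjusted p = 0.889), named after their values were seen, were not called. Fpgs, which adds the glutamate tail that keeps folate in the cell, fell by 24.2% (-0.40, edgeR adjusted p = 9.32e-05). Gcsh, a carrier protein of glycine cleavage, fell by 13.3% (-0.21, edgeR adjusted p = 0.00453; 0.0611 without RGFP966 library 3, the highest of a range from 7.87e-04). Amt, of the same complex, rose from 3.47 ± 0.408 (SD, n = 3) to 5.28 ± 0.974 CPM (0.60, edgeR adjusted p = 0.0167), and lost its call without vehicle library 3 (0.0776) and RGFP966 library 2 (0.123), with DESeq2 (0.0837) and with cyclic loess (0.0572), in a range that began at 0.0101. The fourth gene that fell, named after its values were seen, was Aldh1l1, the cytosolic formyl-folate dehydrogenase gene, at 5.31 and 3.33 CPM (-0.67, edgeR adjusted p = 0.00861; 0.144 without vehicle library 3 and 0.0579 with DESeq2, in a range from 0.00399). Of 16 folate and glycine cleavage genes tested, 4 fell and 1 rose. These are 25% and 6.25% of the list, against 11.9% and 11.4% of all genes. Gldc, of the glycine cleavage complex, had too few counts to be tested, as had Ggh, Mthfd2l and Mthfs.

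Purine synthesis uses one-carbon units. Of its 13 genes tested, 2 rose and 0 fell by edgeR (median log2 fold change 0.06), while 6 were higher and 0 lower at an unadjusted p under 0.05. The 2 rises were 15.4% of the list, near the 11.4% of all genes. At 100 CPM or more 13.5% of genes were called higher, and at 10 to 100 CPM 12.5%. The list held genes of both levels. DESeq2 and limma-voom called 2 higher and 0 lower. With a replicate block, DESeq2 size factors, upper-quartile factors, library totals, a minimum of 5 CPM, cyclic loess or thinned counts, 4 to 6 rose, the added genes being Paics, Pfas, Adsl and Impdh1, and without RGFP966 library 1 only Gart did. Without vehicle library 2 or 3 the count was 3, and without RGFP966 library 2 1 gene, Adss, was called lower (adjusted p = 0.0422; 0.168 with all libraries, the highest being 0.541). Gart, which encodes an enzyme that takes a formyl group from folate, rose by 15.8% (0.21, edgeR adjusted p = 8.44e-05), with 19.7% of its exons overlapped by Gm15964, at about 1 CPM. Prps2, which makes the ribose donor, rose by 9.67% (0.13, edgeR adjusted p = 0.0106; 0.0648 without RGFP966 library 1, the highest of a range from 0.00231). Of 7 methionine cycle and transsulfuration genes tested 0 were called by edgeR, DESeq2 or limma-voom. Bhmt, Cbs and Cth had too few counts to be tested. Cbs and Cth are the transsulfuration genes of the list, so that pathway was not tested. At an unadjusted p under 0.05, 1 was higher, Ahcy (0.10, adjusted p = 0.0624), and 1 lower, Mat2b (-0.11, adjusted p = 0.0717), both named after their values were seen. Ahcy shares 68.7% of its words with other genes and was called higher in 7 of 16 alternatives, among them those without vehicle library 3 or RGFP966 library 3 (range 0.0152 to 0.328). Without RGFP966 library 2, Mat2a was called lower (-0.27, adjusted p = 0.0193; -0.16 and 0.438 with all libraries, the highest being 0.855).

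Genes of the other branches of the unfolded protein response, driven by ATF6 and XBP1, went both ways. Of 18 tested, 4 fell and 3 rose (median log2 fold change -0.02). The falls were 22.2% and the rises 16.7% of the list. Among all genes the shares were 11.9% and 11.4%. At 100 CPM or more they were 22.2% and 13.5%, and at 10 to 100 CPM 14.6% and 12.5%. The list held genes of both levels, with Creld2 at the lower one. Edem1 (-0.22, edgeR adjusted p = 1.31e-04), Creld2 (-0.25, adjusted p = 0.00107) and Sel1l (-0.18, adjusted p = 0.00222), which act in folding and disposal of proteins in the endoplasmic reticulum, fell. Pdia6 (0.12, adjusted p = 0.00902), Atf6 (0.12, adjusted p = 0.0135) and the chaperone gene Hyou1 (0.12, adjusted p = 0.0278) rose by edgeR. The fourth that fell, Herpud1, named after its values were seen, measured -0.16 (adjusted p = 0.00560; 0.0729 without RGFP966 library 3, the highest of a range from 0.00253). The call of Atf6 was lost without vehicle library 1 (0.0506) and RGFP966 library 3 (0.0732), in a range that began at 0.00247. That of Hyou1 was lost without vehicle library 2 (0.146), RGFP966 library 1 (0.210) and RGFP966 library 3 (0.0756), and with DESeq2 (0.0550), in a range that began at 0.00675.

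**Figure D4:**
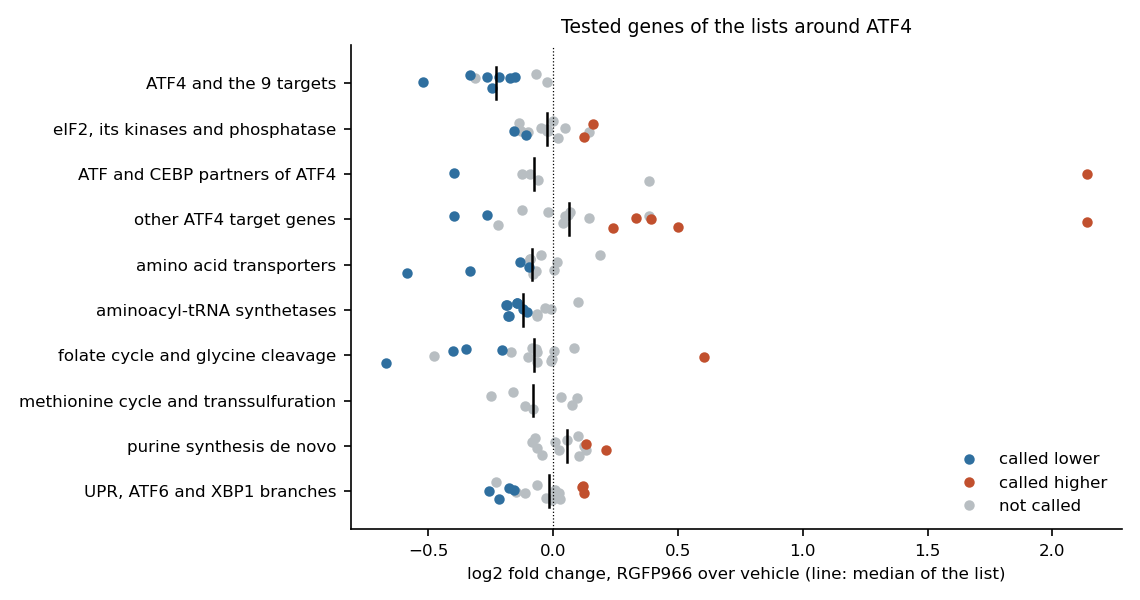
Log2 fold change of RGFP966 over vehicle (horizontal axis) for every tested gene of the 10 members and 9 lists; colour gives the call and the black line the median of a list. The medians of the members (-0.23) and the aminoacyl-tRNA synthetases (-0.12) lie lowest, and Atf3 at 2.14 stands in both of the lists that hold it.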

How the data were processed

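RNA of 6 EL4 libraries was sequenced. The authors deposited raw read counts per Ensembl gene, whole numbers with 1 column per library. The submitters' processing notes name HTSeq 0.6.0, HISAT2 2.1.0, Bowtie2 2.2.3, TopHat2, CASAVA and the build mm10, without roles; annotation release and strand are not stated in the sources used here. Symbols matched 51633 IDs. Positions (1-based) and lengths are those of GENCODE M21, on that assembly. Members and lists were chosen with earlier results of these data known.

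Counts of all libraries were fitted in edgeR 4.0.16 (R 4.3.3), with filterByExpr, TMM scaling and the robust quasi-likelihood test, group being the sole term. P-values were adjusted by Benjamini and Hochberg across the 13484 genes. The test was tried on simulated data. CPM are scaled by the same factors (marker sums by plain totals), and marker and list counts carry no set test. Intervals are those of the fit. Ratios used a two-sided exact permutation test (scipy 1.17.1). Named were all members, per list up to 3 called genes of smallest p in each direction, and the 3 genes most like Atf4; genes beyond these were chosen after their values were seen. Alternatives were a replicate block, DESeq2 1.42.0 size factors and Wald test, upper-quartile factors, totals, other filters, limma-voom 3.58.1 with and without cyclic loess, thinned counts and each library left out.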

Additional observations from a re-analysis of the deposited data

How the results depend on the processing

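Under 16 alternatives, 0 of the 51 genes followed changed direction where tested; 705 of their values kept their side of the threshold, 68 lost a call and 39 gained one. Between 6 and 8 members were lower and 0 higher. Psat1, Phgdh, Shmt2, Mthfd2 and Trib3 were called, and Atf4 and Asns were not, in all 16. Leaving out 1 library gave 6 or 7 lower members. The DESeq2 Wald test called 2087 genes in place of 3145, 1011 of them higher in place of 1543, and 6 lower members. In the list of other ATF4 targets it called 3 genes higher in place of 5. The replicate block gave 3431 calls and 8 lower members. Same-numbered libraries deviated together with correlations of -0.02, 0.01 and 0.01 only. No pairing was seen, but these values could not exclude shared handling of same-numbered libraries. Depth limits Chac1, Ddit3 and Trib3, with 101 to 334 counts per library, and Atf3, with 3 to 22.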
